A study of Mus musculus with 48 samples.

Results

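Captured methylated DNA of the colon was compared with that of the jejunum of the same mouse, in 12 mice of both mouse models. The comparison used 24 of the 48 libraries of the series, chosen by their intestinal section, and 94535 of the 95882 deposited regions, those on the autosomes. Colon and jejunum libraries came from 7 GermFree mice, raised without a microbiota, and from 5 ConvR mice, which the series describes as conventionalized, and each mouse gave 1 library per section. The sources used here give no strain, age, sex or further treatment. The labels name the intestine and its section but no cell type, so which cells of a gut segment a library holds is not known. In DNA from a mix of cells, a different mix and a different methylation within a cell cannot be told apart. Captured DNA is no measure of expression, so the section could not be checked against marker genes beyond the sums given below. All deposited region names carry the GermFree label, and the sources used here do not say which libraries the regions were called on.

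DNA methylation in mammals is placed mainly on cytosines that precede a guanine, the CpG dinucleotide, and helps to keep genes and repeated sequences silent when it lies on their promoters. A methyl-CpG-binding domain (MBD) binds such methylated CpGs, and here it was used to pull sheared DNA fragments down before sequencing, so a count reflects both how many CpGs a region holds and how many of them are methylated. The epithelium of the gut renews itself from stem cells in crypts: the jejunum carries villi that absorb nutrients, whereas the colon has crypts without villi, more goblet cells and the densest microbiota. Values below are CPM, counts scaled to a common total of autosomal region counts with TMM factors, and differences are log2 ratios of colon over jejunum from a paired fit with the mouse as a block.

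Autosomal counts ranged from 1445752 to 2363157 per colon library and from 1506669 to 2450540 per jejunum library. The median region held 11 to 18 counts in the libraries of either section, so counting error alone is large for a single region of ordinary level. ConvR mouse 3 stood apart. In it the regions reported below as higher in colon summed to 11700 CPM in colon and 15220 CPM in jejunum, the opposite of the other 11 mice, and results that rest on this mouse are also given without it.

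Of 94381 regions that passed the count filter, 424 differed between colon and jejunum at an adjusted p under 0.05 (edgeR quasi-likelihood F-test, Benjamini-Hochberg), which is 0.449% of those tested. Colon was higher in 365 regions (0.387%) and lower in 59 (0.0625%). An unadjusted p under 0.05 was reached by 9619 regions (10.2%). The differences were small: the regions higher in colon had log2 differences of 0.27 to 0.98 with a median of 0.37, and those lower in colon had -0.95 to -0.31 with a median of -0.58. The number of calls depended strongly on the tool and on single mice. DESeq2 with the same design called 0 regions and gave 2916 (3.09%) an unadjusted p under 0.05. Without GermFree mouse 4 the count of edgeR calls was 22, and without ConvR mouse 3 it was 1633.

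The regions that were higher in colon were broad and strongly captured, and those that were lower were ordinary in both respects. Higher regions had a median width of 4023 bp and a median level of 35.1 CPM, lower regions 1375 bp and 10.5 CPM, and all tested regions 1209 bp and 8.6 CPM. When the tested regions were put in order of level and cut into 10 groups of equal size, the most strongly captured group held 261 of the 365 higher regions but 11 of the 59 lower ones. Precision is greatest in that group. The median log2 difference of all regions moved with level too, between -0.051 in the weakest group and 0.027 in the strongest, and offsets fitted to level by loess lowered the calls to 145 higher and 56 lower. The places also differed: 46.0% of higher regions and 76.3% of lower regions lay in gene bodies, against 66.1% of all tested regions.

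**Figure D1:**
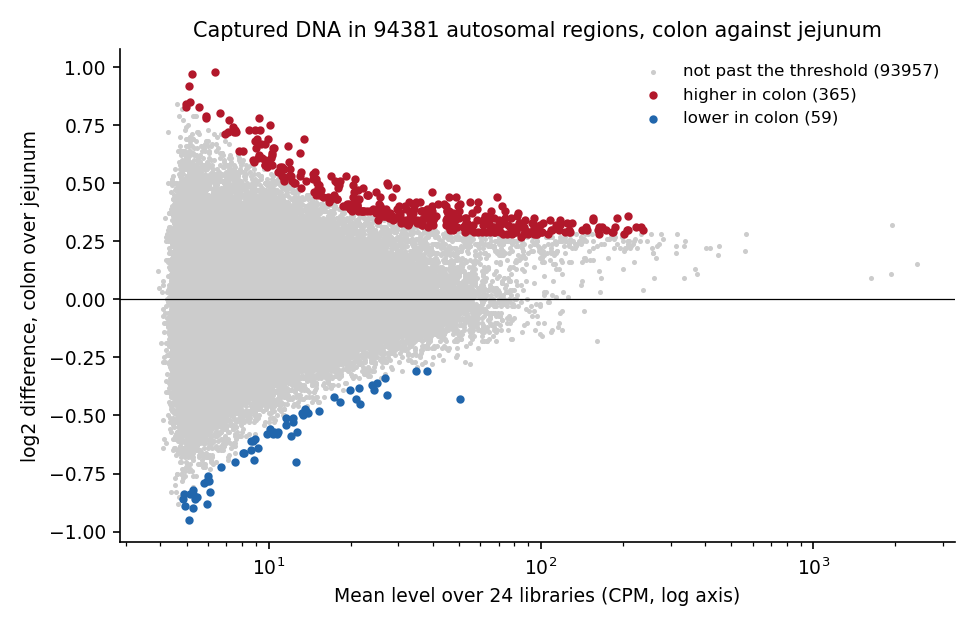
Log2 difference of colon over jejunum against the mean level over 24 libraries (CPM, log axis) for the 94381 tested autosomal regions, with the 365 regions higher in colon in red and the 59 lower in blue. The red points lie mostly at high levels with small differences, and the blue points mostly at lower ones.

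Promoters inside the higher regions held few CpGs, and some of them recurred between genes. RefSeq promoter windows of 300 bases, 250 before a gene start and 50 after it (build GRCm38.p6, the coordinates of mm10), were available for most autosomes. The gene start of 35 windows of 31 genes lay inside a region that was higher in colon, and no window's start lay inside a lower one. These 35 windows held a median of 2 CpGs, against 6 in the 2482 windows inside any tested region and 7 in all 31396 autosomal windows. The dinucleotide searched was CG, which reads the same on both strands; 82.9% of the 35 windows held at least 1, against 97.9% of the windows inside tested regions and 94.8% of all. Words of 20 bases were also compared among the windows, on both strands: in 25.7% of the windows inside higher regions, 50% or more of the words also occurred in a window elsewhere in the genome, against 2.5% of the windows inside tested regions and 4.4% of all. The median share of such words was 1.07% inside higher regions and 0.0% inside tested regions and in all windows. Some of the 35 windows overlap, so they are not independent, and the sets were not matched for width or level. The windows below are printed 5′ to 3′ on the strand of the gene, with CG in capitals, because they show both kinds. Those of Pramel25 and Tdpoz4 belong to multi-copy families and share 56.6% and 52.7% of their words with other windows, whereas those of Ugt1a1, Ifi202b and Abcg2 share 0.0%.
Pramel25, chr4:143789084-143789383, plus strand: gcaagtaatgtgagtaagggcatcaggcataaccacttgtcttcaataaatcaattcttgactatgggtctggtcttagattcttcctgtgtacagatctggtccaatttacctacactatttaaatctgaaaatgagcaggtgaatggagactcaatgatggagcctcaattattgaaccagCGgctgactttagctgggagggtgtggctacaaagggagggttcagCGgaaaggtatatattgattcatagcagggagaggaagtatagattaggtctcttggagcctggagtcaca
Tdpoz4, chr3:93796148-93796447, plus strand: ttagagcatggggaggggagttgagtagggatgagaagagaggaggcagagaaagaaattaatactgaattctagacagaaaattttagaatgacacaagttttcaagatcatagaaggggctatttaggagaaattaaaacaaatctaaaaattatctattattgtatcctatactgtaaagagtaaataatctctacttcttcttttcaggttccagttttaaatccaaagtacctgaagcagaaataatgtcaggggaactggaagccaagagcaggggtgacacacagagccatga
Ugt1a1, chr1:88211709-88212008, plus strand: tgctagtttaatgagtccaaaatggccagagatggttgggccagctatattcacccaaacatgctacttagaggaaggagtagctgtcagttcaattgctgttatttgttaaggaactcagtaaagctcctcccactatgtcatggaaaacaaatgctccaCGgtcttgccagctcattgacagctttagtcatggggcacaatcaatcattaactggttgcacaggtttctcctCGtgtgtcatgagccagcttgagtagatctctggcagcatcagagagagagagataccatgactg
Ifi202b, chr1:173982795-173983094, minus strand: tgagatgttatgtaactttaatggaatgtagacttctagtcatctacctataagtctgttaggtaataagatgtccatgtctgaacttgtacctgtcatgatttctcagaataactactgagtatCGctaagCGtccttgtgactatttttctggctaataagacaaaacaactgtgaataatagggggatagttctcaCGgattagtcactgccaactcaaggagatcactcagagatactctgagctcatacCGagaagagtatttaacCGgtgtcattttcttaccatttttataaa
Abcg2, chr6:58596422-58596721, plus strand: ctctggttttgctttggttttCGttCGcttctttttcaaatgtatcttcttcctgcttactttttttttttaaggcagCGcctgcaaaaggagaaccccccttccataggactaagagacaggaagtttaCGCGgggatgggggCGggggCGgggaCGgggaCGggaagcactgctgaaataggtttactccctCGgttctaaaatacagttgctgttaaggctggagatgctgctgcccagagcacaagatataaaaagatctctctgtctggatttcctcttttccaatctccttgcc

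The window of Tdpoz4 holds 0 CpGs and that of Pramel25 holds 2, and both lie inside regions higher in colon, at log2 differences of 0.34 for Tdpoz4 and 0.32 for Pramel25. Abcg2, which encodes an efflux pump of the apical membrane, has 10 CpGs in its window, and Ifi202b, an interferon-inducible gene, has 5. Read over all 59 tested regions that hold a window with 50% or more shared words, a grouping made after the differences had been seen and therefore given without a test, the summed level was 3778 ± 494 CPM in colon and 3204 ± 313 CPM in jejunum (SD, n = 12 mice each), a mean log2 difference of 0.23 ± 0.30. The 1679 regions with a window that shares no word summed to 27290 ± 285 CPM in colon and 26860 ± 404 CPM in jejunum, a mean log2 difference of 0.02 ± 0.03. Colon was above jejunum in 11 of 12 mice for both groupings, and ConvR mouse 3 was the exception in both, at -0.48 and -0.02.

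The called regions lay close together. With a gap of at most 500000 bp between neighbours, 17 stretches on 13 chromosomes held 5 or more calls each, and together they held 161 of the 424 calls (38.0%) on 716 of the tested regions (0.759%). All 161 were higher in colon. Many of these stretches hold arrays of related genes, and their calls chose them, so their values are a description. Because the files do not say how reads that fit several places were counted, the level of a single copy within such an array is uncertain, and sums over a stretch are given first.

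The stretch with the most calls holds the Klra genes. These genes code for the Ly49 family, receptors with which natural killer cells read class I molecules on other cells, and the stretch on chromosome 6 (chr6:129992898-131043459) had 31 of 77 regions higher in colon. Of the 31, 6 lay at Klra genes, 12 at genes with a predicted-gene number and 13 at no gene. Its summed level had a lowest, median and highest value of 2100, 5280 and 6270 CPM in colon, against 2640, 3790 and 5210 CPM in jejunum. The ranges overlapped widely, and the models lay far apart: in colon the GermFree mice had 5249 to 6266 CPM and the ConvR mice 2097 to 3878 CPM. The mean log2 difference over mice was 0.27 ± 0.33 (SD), with colon above jejunum in 11 of 12. All 22 tested regions at genes with a Klra symbol were above 0, and 6 of them passed the threshold. Of the 22, 21 lay in this stretch, so they are not independent. Their median log2 difference was 0.40 in GermFree mice alone and 0.04 in ConvR mice alone. The ConvR value includes ConvR mouse 3: summed over the stretch this mouse had -0.52, and the other ConvR mice had 0.02 to 0.33. The region in Klra3 (chr6:130326933-130332068) had 16.4, 31.0 and 41.1 CPM as lowest, median and highest value in colon and 14.8, 22.2 and 32.9 CPM in jejunum. Its log2 difference was 0.49 ± 0.09 (SE, adjusted p = 0.00196), with colon higher in 11 of 12 mice. The regions in Klra4 and Klra1 had log2 differences of 0.34 and 0.33.

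Genes for ligands of another natural killer receptor, NKG2D, lay in a further stretch, which its calls had chosen as well. The stretch with Raet1e and H60b on chromosome 10 (chr10:22160236-22353533), genes whose products appear on stressed cells, had 7 of 18 regions higher in colon. Of the 7, 1 lay at Raet1e, 5 at genes with a predicted-gene number and 1 at no gene. The region beside H60b, which lies in the body of the lncRNA Gm26740, averaged 66.7 ± 38.2 CPM in colon and 49.5 ± 25.5 CPM in jejunum (SD, n = 12 each), with a log2 difference of 0.42 ± 0.08 (SE, adjusted p = 0.00196). Its colon level was 94.3 ± 22.5 CPM in GermFree mice (n = 7) and 28.1 ± 7.29 CPM in ConvR mice (n = 5). The models lay apart in jejunum too, at 66.0 ± 20.1 CPM in GermFree mice and 26.4 ± 5.85 CPM in ConvR mice. The log2 difference of colon over jejunum was 0.53 in GermFree mice alone and 0.11 in ConvR mice alone. Colon was higher in 11 of 12 mice, and the exception was ConvR mouse 3, with 16.4 CPM in colon and 26.2 CPM in jejunum. The difference between the models did not pass (edgeR, adjusted p = 0.687). The stretch with the Sirpb1 genes on chromosome 3 (chr3:15324785-15828686), which encode signal-regulatory proteins of myeloid cells, had 9 of 25 regions higher, 4 of them at a Sirpb1 gene. All 25 were above 0. The sum over the stretch averaged 517 ± 82.6 CPM in colon and 407 ± 49.4 CPM in jejunum, which was the greatest mean log2 difference of the 17 stretches, 0.33 ± 0.32 (SD over mice). Cr2, the complement receptor of B cells and follicular dendritic cells, lay in a stretch of 6 calls among 17 regions on chromosome 1. The stretch with immunoglobulin heavy chain variable genes on chromosome 12 held 6 calls among 29 regions, 4 of them at an Ighv gene, with colon above jejunum in 10 of 12 mice.

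Several other stretches hold genes that regulate transcription or genes of the germ line and early embryo. The cluster of zinc finger genes on chromosome 4 (chr4:145541086-147796581) includes Zfp980, Zfp990 and Zfp993 and had 18 of 147 regions higher in colon; its sum averaged 8490 ± 1170 CPM in colon and 7190 ± 822 CPM in jejunum. Of 920 tested regions at genes with a Zfp symbol, 12 were higher, 1 was lower and the median log2 difference was 0.00. Sp140 and Sp100, which encode proteins of nuclear bodies, lay in a stretch with 6 of 37 regions higher. The stretch with Tdpoz genes on chromosome 3, whose products carry TRAF and POZ domains, had 6 of 12 regions higher, 5 of them at a Tdpoz gene. The stretch with Pramel genes on chromosome 4, relatives of the germ-line antigen PRAME, had 6 of 26, 4 of them at a Pramel gene. The region beside Tdpoz2 had 25.7, 44.4 and 62.1 CPM as lowest, median and highest value in colon and 22.8, 35.2 and 39.6 CPM in jejunum. Its log2 difference was 0.46 ± 0.08 (SE, adjusted p = 0.00196), and colon was higher in 11 of 12 mice. Speer4e on chromosome 5, of a gene family transcribed in the testis, had 7 of 12 regions in its stretch higher. The stretches on chromosomes 16 and 17, with 8 of 16 and 12 of 20 regions higher, held no gene with a name other than a predicted-gene number.

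The mice kept nearly one order across all these arrays, although they lie on different chromosomes. GermFree mouse 4 had the highest colon-over-jejunum ratio of the 12 mice in 15 of the 17 stretches, between 0.56 and 0.85, and GermFree mouse 7 in the other 2. ConvR mouse 3 had the lowest ratio in all 17, between -0.52 and -0.14. GermFree mouse 3 and ConvR mouse 2 stayed near 0, at -0.06 to 0.13 and -0.01 to 0.11. What sets the order of the mice was not tested.

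**Figure D2:**
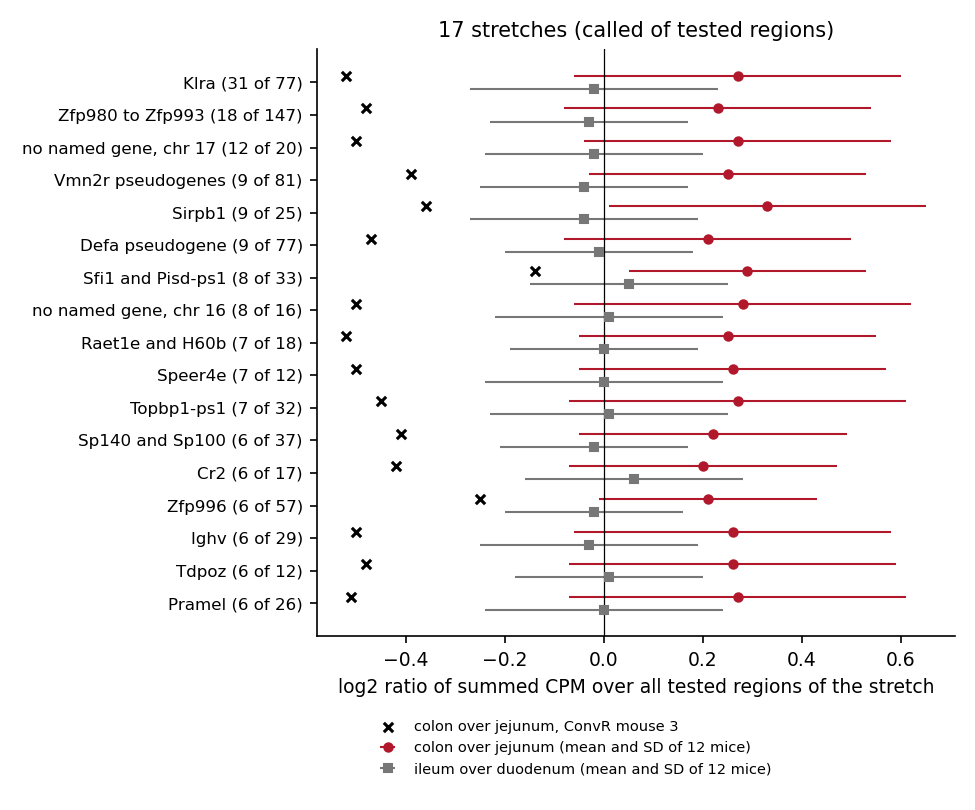
Mean log2 ratio of the summed CPM over all tested regions of each stretch, with the SD over 12 mice, for colon over jejunum (red circles) and for ileum over duodenum (grey squares), and the colon over jejunum value of ConvR mouse 3 (crosses). Red circles lie between 0.20 and 0.33 and grey squares between -0.04 and 0.06.

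The called regions with the same direction in all 12 mice were picked for that trait, so it is only a description of them. Among all 94381 tested regions, 64 had colon above jejunum in 12 of 12 mice and 51 had it below. Of the 365 higher regions 15 had colon above jejunum in 12 of 12 mice, and 10 of these lay at a gene with a symbol other than a predicted-gene or clone number, Tdpoz3 of the array above among them (0.45). A small region in the body of Selenov, which encodes a selenoprotein of the testis, showed the greatest of these differences: 3.55, 5.16 and 7.65 CPM as lowest, median and highest value in colon and 1.76, 2.73 and 4.09 CPM in jejunum. Its log2 difference was 0.84 ± 0.22 (SE, adjusted p = 0.0409), and the ranges of the sections overlapped only between 3.55 and 4.09 CPM. Dyrk4, a protein kinase gene, followed with 0.83 ± 0.22 (adjusted p = 0.0465). The region in Snhg14 (chr7:59707743-59708846), the long host transcript of small nucleolar RNAs in an imprinted domain, averaged 10.7 ± 1.85 CPM in colon and 7.28 ± 1.90 CPM in jejunum. Il18bp, whose product binds and blocks the cytokine interleukin 18, averaged 35.2 ± 3.72 CPM in colon and 28.1 ± 2.71 CPM in jejunum, with a log2 difference of 0.32 ± 0.08 (adjusted p = 0.0389). Plcb2, the phospholipase of taste and tuft cell signalling, had 0.38, Rnmt, the enzyme that methylates the messenger RNA cap, 0.37, Spag1, which helps assemble dynein arms, 0.52, and Fam241a and Ankrd29 0.56 and 0.59.

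Regions lower in colon lay mostly at protein-coding genes, as did the tested regions in general. Of 59, 42 lay at a protein-coding gene (71.2%, against 64.6% of all tested regions), and these were 41 different genes, with Mtr, the methionine synthase gene, the one that had a pair of regions. None of the 17 stretches held a lower region. Syne2, which encodes a large protein that ties the nucleus to the cytoskeleton, had a region (chr12:76051861-76053602) with 3.62 to 12.9 CPM in colon (mean 8.88 ± 2.59) and 8.65 to 17.6 CPM in jejunum (mean 14.3 ± 3.08, SD, n = 12 each). Its log2 difference was -0.70 ± 0.13 (SE, adjusted p = 0.00196), and colon was lower in 11 of 12 mice. The exception was ConvR mouse 1, with 9.41 CPM in colon and 8.65 CPM in jejunum. A region outside genes on chromosome 12 (chr12:5054911-5059790) had the smallest p of all lower regions: it averaged 42.1 ± 6.84 CPM in colon and 56.6 ± 9.01 CPM in jejunum and was lower in colon in 12 of 12 mice.

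Of the 59 lower regions, 11 had colon below jejunum in all 12 mice, 7 of them at a gene with such a symbol. Klhl3, an adaptor of a ubiquitin ligase, had 14.5, 21.7 and 31.1 CPM as lowest, median and highest value in colon and 23.7, 29.0 and 36.9 CPM in jejunum (chr13:58028310-58033466), a log2 difference of -0.41 ± 0.09 (adjusted p = 0.0102). Rhoq, a small GTPase gene, had 6.01, 9.33 and 13.4 CPM in colon and 10.3, 12.7 and 16.8 CPM in jejunum, a log2 difference of -0.53 ± 0.13 (adjusted p = 0.0275). Galnt10, one of the enzymes that start mucin-type glycosylation, had the greatest difference of the 7, -0.84 ± 0.22 (adjusted p = 0.049), on levels of 2.78 ± 1.05 CPM in colon and 4.88 ± 1.39 CPM in jejunum. The others were Spry2, an inhibitor of receptor tyrosine kinase signalling, at -0.65, Etnk1, an ethanolamine kinase gene, at -0.58, Dnah17, a dynein gene, at -0.34 and Kif26a, a kinesin gene, at -0.31. Section ranges overlapped for all 7.

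**Figure D3:**
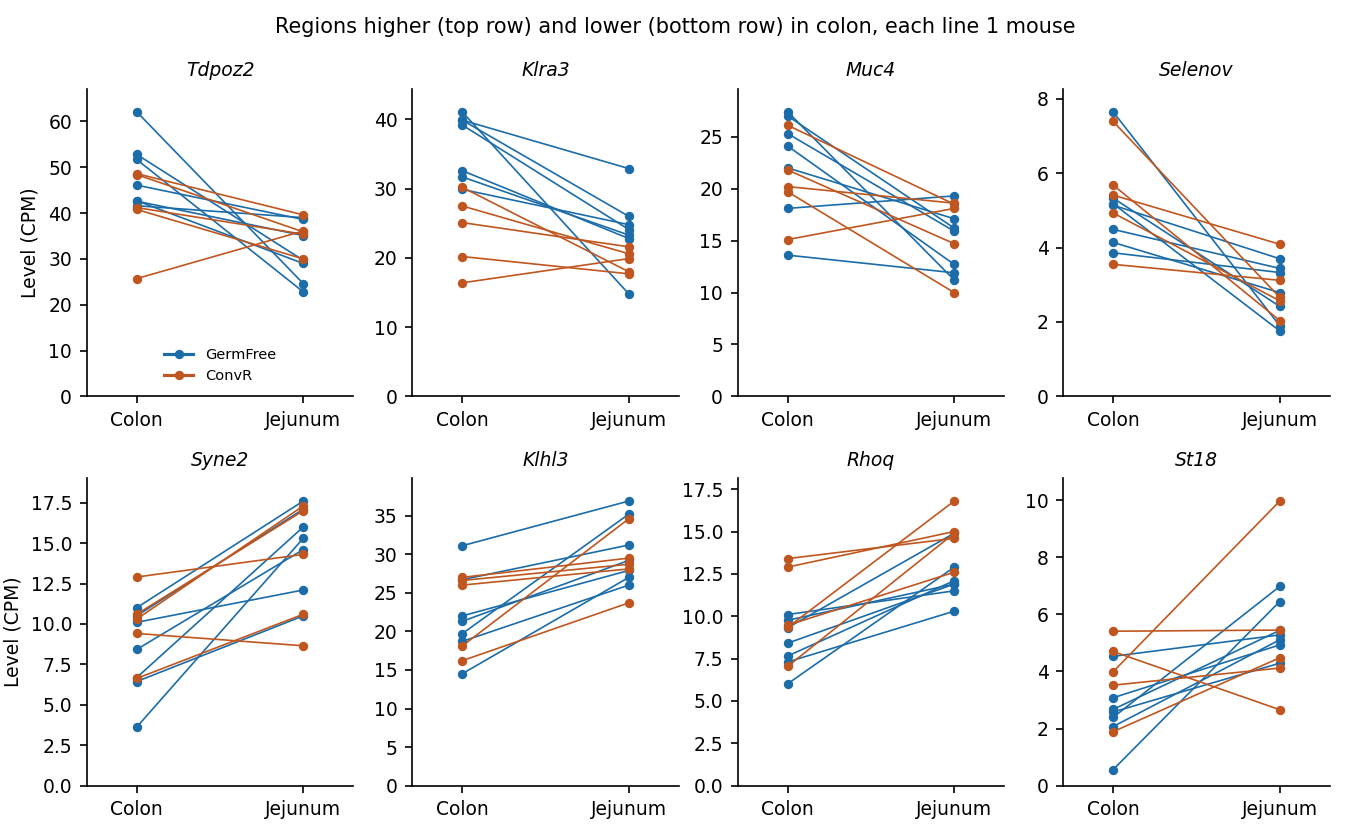
Level (CPM) in colon and jejunum, 1 line per mouse, for regions at Tdpoz2, Klra3, Muc4 and Selenov (top row, higher in colon) and at Syne2, Klhl3, Rhoq and St18 (bottom row, lower in colon), GermFree mice in blue and ConvR mice in orange. At Selenov colon lies above jejunum in all 12 mice and at Klhl3 and Rhoq below it in all 12, whereas 1 or 2 mice go the other way in the other panels.

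Regions at genes of gut biology, with natural killer genes left aside, were called about as often as regions in general. Of 23 gene lists, read as captured DNA within 5 kb of their genes, 14 had no call in either direction. Among these were transcription factors of the gut epithelium, such as the Cdx, Gata and Hnf genes (0 of 189 regions, median log2 difference -0.03), absorption and brush border genes (0 of 149, median 0.04), Wnt and crypt stem cell genes (0 of 189, median -0.01) and T cell and innate lymphocyte genes (0 of 90, median -0.02). The Hox clusters, whose genes pattern the gut from front to back, held only 5 tested regions, with 0 called and a median of -0.15. Over the 22 lists other than natural killer genes, 11 of 2382 regions were called (0.462%), 10 higher and 1 lower. The median over all tested regions was 0.00 and the share called 0.449%, so the count over the 22 lists is no result about these genes. Natural killer receptors and ligands, a list chosen with the theme of the study and earlier results of these data known, had 8 of 63 regions higher (12.7%) and a median of 0.24. The 8 calls lay at Klra genes, H60b and Raet1e, genes of the stretches on chromosomes 6 and 10 described above, so they are not independent. The 63 regions summed to 1020 to 2900 CPM over the colon libraries and 1140 to 2580 CPM over the jejunum libraries.

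Single members of the other lists passed, while the median log2 differences of those lists lay near 0. Colonic epithelium had 1 of 134 regions called (median 0.01), goblet cells 1 of 56 (0.0) and Paneth cells 1 of 23 (0.02). Tuft cells had 1 of 62 (-0.07), enteroendocrine cells 1 of 32 (0.07) and smooth muscle 1 of 202 (0.02). B and plasma cells had 2 of 137 (-0.04), and bile acid and xenobiotic handling 3 of 146 (0.0). Muc4, a membrane mucin gene, had a region (chr16:32751793-32755127) with 13.6, 21.9 and 27.4 CPM as lowest, median and highest value in colon and 9.99, 16.0 and 19.3 CPM in jejunum, a log2 difference of 0.53 ± 0.11 (adjusted p = 0.00443) and colon higher in 10 of 12 mice. Muc3, another membrane mucin gene, had 0.36 (adjusted p = 0.0356). Beside Defa26, of the alpha-defensins that Paneth cells secrete, the level was 7.21 ± 1.70 CPM in colon and 4.04 ± 1.64 CPM in jejunum, and all 10 tested regions at Defa genes were above 0, with 2 higher at the threshold. The clearance genes Ugt1a1, which conjugates bilirubin, and Abcg2 had log2 differences of 0.30 and 0.35. Synpo2, an actin-binding protein gene of smooth muscle, had 0.38. The only list member that was lower was St18, a zinc finger gene placed among the enteroendocrine genes, at -0.82 ± 0.22 (adjusted p = 0.0472), with 3.12 ± 1.38 CPM in colon and 5.43 ± 1.81 CPM in jejunum. Summed levels of the cell type lists, which were chosen as markers of other cells in the segment, overlapped between the sections in each list: smooth muscle genes had 2060 to 2120 CPM in colon and 2000 to 2100 CPM in jejunum, enteric neurons, glia and interstitial cells 1190 to 1280 CPM and 1190 to 1290 CPM, and pancreas and fat genes 571 to 647 CPM and 583 to 638 CPM. Captured DNA at a marker gene is not its expression, so these sums do not count cells.

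The summed level of all 365 higher regions shows how the mice differ. Over GermFree mice the colon held 19860 to 22820 CPM and the jejunum 12850 to 18540 CPM, with no overlap, and the mean log2 ratio was 0.47 ± 0.24 (SD, n = 7). Over ConvR mice the colon held 11700 to 20400 CPM and the jejunum 13320 to 16750 CPM, and the mean log2 ratio was 0.14 ± 0.31 (n = 5), or 0.27 ± 0.11 without ConvR mouse 3 (n = 4). These regions were chosen on the same libraries, so the ratios are a description. The 59 lower regions summed to less in colon than in jejunum in all 12 mice, by a mean log2 ratio of -0.59 ± 0.13 in GermFree mice and -0.40 ± 0.16 in ConvR mice.

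**Figure D4:**
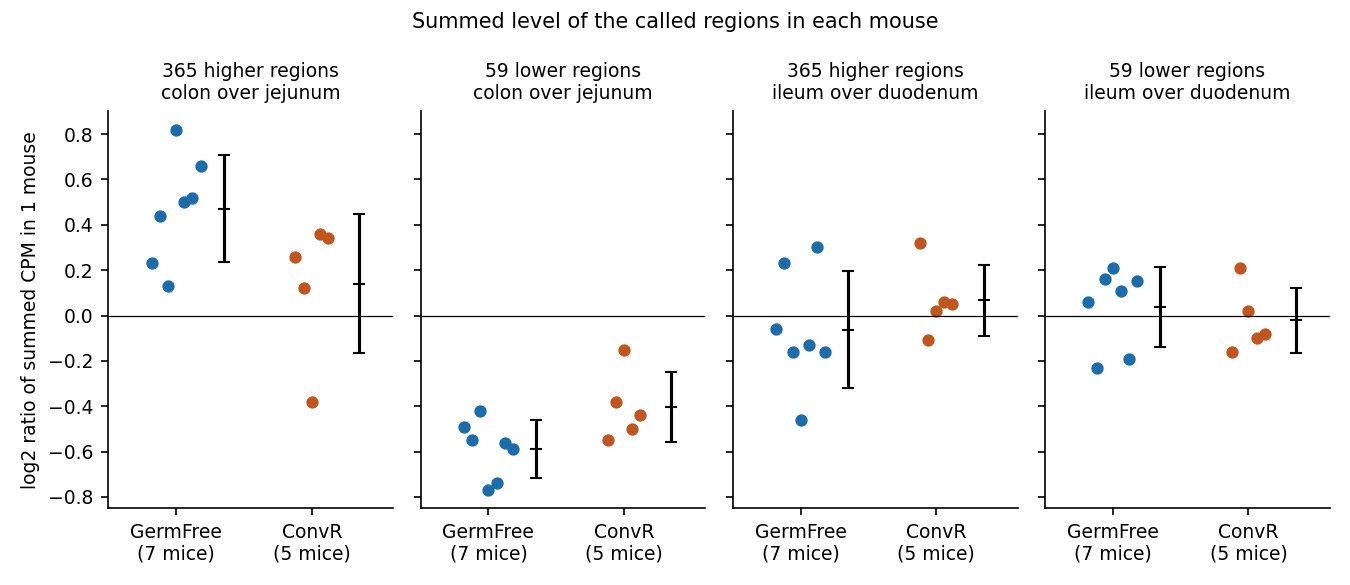
Log2 ratio of the summed CPM of the 365 higher and 59 lower regions in each mouse, for colon over jejunum (left) and ileum over duodenum (right), with the mean and SD of 7 GermFree mice (blue) and 5 ConvR mice (orange). Colon over jejunum is above 0 for the higher regions in all mice but ConvR mouse 3, while ileum over duodenum scatters around 0.

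Calls made in one model were then read in the other, which the choice had not used. GermFree mice alone gave 1365 calls among 93042 tested regions (1.47%), 1093 higher and 272 lower in colon. ConvR mice alone gave 0 among 89577 (0.0%) by edgeR, with 3640 regions at an unadjusted p under 0.05 (4.06%). Of the 1093 regions higher in GermFree colon, 1092 could be tested in ConvR mice, and 778 of them were above 0 there (71.2%), against 50.3% of all regions tested, with a median log2 difference of 0.07. Summed over these regions, the ConvR ratio averaged 0.06 ± 0.29 (n = 5), with 4 mice above 0 and p = 0.625 in an exact two-sided permutation test over sign changes, whose smallest possible p with 5 mice is 0.0625. Without ConvR mouse 3 it was 0.18 ± 0.11, above 0 in 4 of 4 mice (exact p = 0.125, the smallest possible). The 272 regions lower in GermFree colon had a median of -0.04 in ConvR mice and summed to -0.05 ± 0.19 (exact p = 0.562), or -0.13 ± 0.10 without ConvR mouse 3.

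The difference between the models was also tested directly. With the interaction of model and section, 0 of 94381 regions passed (0.0%) by edgeR, while 6024 (6.38%) reached an unadjusted p under 0.05. The count from DESeq2 was also 0, with 1207 (1.28%) unadjusted. Of the 3 regions with the smallest p, the one in Ebf2, a transcription factor gene, averaged 4.44 ± 1.49 CPM in GermFree colon and 2.50 ± 1.55 CPM in GermFree jejunum, against 1.93 ± 1.46 CPM in ConvR colon and 5.69 ± 1.17 CPM in ConvR jejunum (log2 interaction 2.31, adjusted p = 0.108). The region in Ybx3, which encodes a cold shock domain protein, averaged 22.2 ± 2.13 CPM in GermFree colon, 14.6 ± 2.05 CPM in GermFree jejunum, 20.6 ± 2.56 CPM in ConvR colon and 27.0 ± 14.1 CPM in ConvR jejunum (log2 interaction 0.97, adjusted p = 0.108). Its high ConvR jejunum mean came from mice 3 and 1, at 47.4 and 35.3 CPM. The third, outside genes on chromosome 6, had a log2 interaction of 0.99 (adjusted p = 0.0594).

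Libraries of the ileum and duodenum from the same 12 mice give a reading of the called regions that their choice did not use. Ileum against duodenum gave 0 calls among 94490 tested regions (0.0%), with 4635 at an unadjusted p under 0.05 (4.91%, against 10.2% for colon over jejunum). The 365 regions higher in colon summed to a log2 ratio of ileum over duodenum of -0.01 ± 0.22 (n = 12, 6 mice above 0, exact permutation p = 0.885), and the 59 lower regions to 0.01 ± 0.16 (exact p = 0.786). Of the 365 regions, 124 were above 0 in ileum over duodenum (34.0%), against 50.1% of all tested. The spread among mice was nevertheless wide, from -0.46 in GermFree mouse 4 to 0.32 in ConvR mouse 1 for the higher regions. None of the 17 stretches passed the threshold between ileum and duodenum (smallest adjusted p = 0.986, exact permutation tests adjusted over 17 stretches).

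The other sections were also set against the jejunum, in a fit to all 48 libraries. Ileum against jejunum gave 2 calls among 94534 regions (0.00212%) and duodenum against jejunum 15 (0.0159%), while the same fit called 606 regions between colon and jejunum. All 3 comparisons share the jejunum libraries. At the 365 higher regions ConvR mouse 3 had 9595 CPM in ileum and 9487 CPM in duodenum, both below its 11700 CPM in colon and 15220 CPM in jejunum.

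Regions that separate the mouse models were set beside those that separate the sections. GermFree against ConvR mice, on the summed counts of duodenum and ileum that the section comparison does not use, gave 225 calls among 94535 regions (0.238%), 186 higher and 39 lower in GermFree mice. Of the 186 regions higher in GermFree mice, 56 were also higher in colon than in jejunum (30.1%, against 0.387% of all regions tested between the sections), which is 15.3% of the 365. The mice are the same in both comparisons although the libraries are not. The share over all regions takes no account of level, and the most strongly captured of the 10 groups held 261 of the 365 higher regions. Whether the overlap exceeds that among regions of like level was not tested.

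Shares of counts by class of region were read without selection by a call. Regions of 5 kb or more took 21.45 ± 0.547% of autosomal counts in colon and 20.78 ± 0.446% in jejunum (SD, n = 12 each), a difference of 0.674 ± 0.720 percentage points with colon above in 11 of 12 mice (exact permutation test over sign changes, adjusted p = 0.0132 over 4 classes). Regions outside genes took 24.69 ± 0.299% in colon and 24.37 ± 0.143% in jejunum, and regions within 1 kb of a gene start 6.745 ± 0.0851% in colon and 6.651 ± 0.0743% in jejunum, also with adjusted p = 0.0132 each. Gene bodies took less in colon, 68.56 ± 0.367% against 68.98 ± 0.198% in jejunum (adjusted p = 0.0132). The last 3 classes cover only the regions on autosomes with gene starts in the table and are shares of the counts there; they sum to the whole, so they are not independent. In GermFree mice the share of broad regions differed by 1.04 ± 0.626 points and in ConvR mice by 0.16 ± 0.523 points; the difference between models had p = 0.0316 and an adjusted p of 0.0632 (exact permutation over 792 arrangements of the mice), so it did not pass. Without ConvR mouse 3 the ConvR difference was 0.381 ± 0.2 points (n = 4), and the difference between models had p = 0.0879 and an adjusted p of 0.176 (exact permutation over 330 arrangements). Ileum minus duodenum was -0.00742 ± 0.626 points for broad regions, with ileum above in 5 of 12 mice (adjusted p = 0.966, exact permutation).

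**Figure D5:**
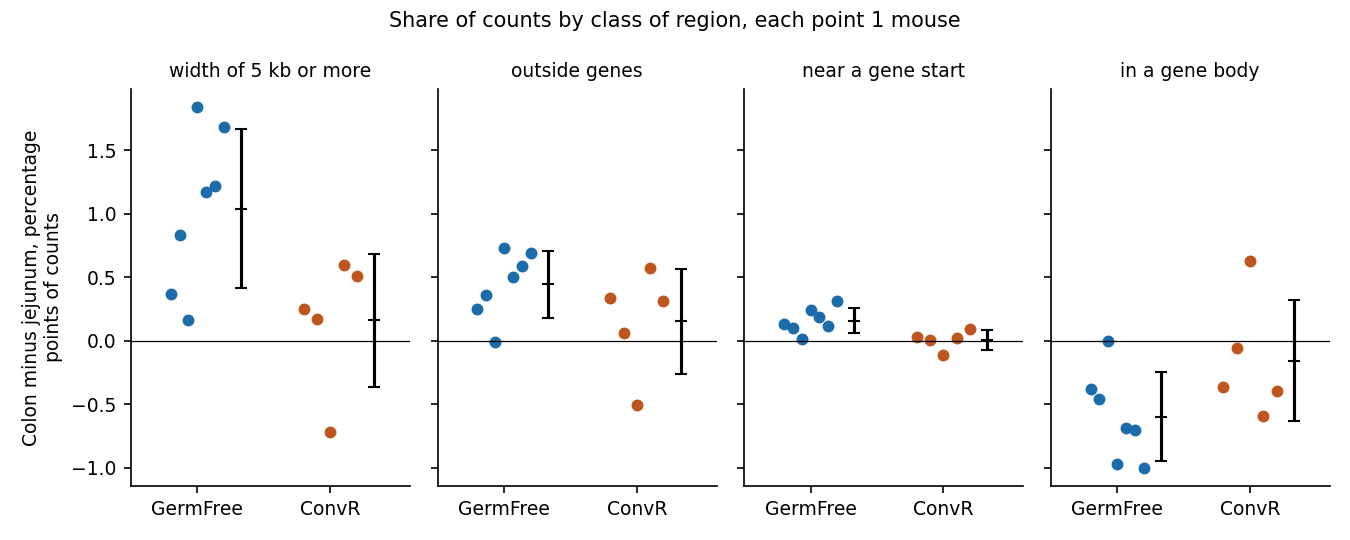
Colon minus jejunum share of counts in percentage points for regions of 5 kb or more, outside genes, near a gene start and in gene bodies, 1 point per mouse with the mean and SD of 7 GermFree mice (blue) and 5 ConvR mice (orange). For broad regions all 7 GermFree mice lie between 0.165 and 1.84 points, and ConvR mouse 3 lies at -0.722.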

How the data were processed

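Per the labels' protocols, sheared DNA was enriched for methylated fragments with the MethylMiner kit and sequenced from single ends on a HiSeq instrument. The submitters' processing notes list cutadapt 1.4.2, Trim Galore 0.3.7, featureCounts, MACS2 and build mm10. Aligner, duplicate removal and the counting of multiply matching reads are not given in these sources. The authors deposited whole-number counts per region without normalisation. They also deposited a peak list with 1 score per region, used here only as a filter in an alternative.

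Sections, models and mice were taken from the labels, which tie a colon and a jejunum library to the same mouse. The correlation of deviations within a mouse was -0.044 to 0.0201 (median 0.00363, 12 pairs), so the pairing rests on the labels. Counts were tested under R 4.3.3 in edgeR 4.0.16 (filterByExpr, TMM, trended dispersion, quasi-likelihood F-test, mouse as a block, Benjamini-Hochberg over all tested autosomal regions, threshold 0.05), with DESeq2 1.42.0 as an alternative. The test was tried on simulated counts that had independent regions, no mouse effects and a dispersion near the trend fitted by edgeR. That trial therefore cannot show how the test behaves where regions move together within a mouse. Levels are TMM-scaled CPM from all 48 libraries; sums were compared per mouse by exact permutation tests over sign changes (SciPy 1.17.1). A region belongs to a gene it overlaps or lies within 5 kb of, by a RefSeq gene table (GRCm38.p6) without strand or exons; it is near a gene start within 1 kb.

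Named regions passed the threshold with 1 direction in 12 mice and at a gene with a symbol (up to 12 per direction by size), had 1 of the 3 smallest p-values per direction, or were among up to 4 of a gene list; the interaction gave 3. Regions inside the stretches and the promoter windows were chosen after their values were seen. The members and lists were chosen with earlier results of these data known. Alternatives were other scalings, filters and tools, leaving out each mouse, and each model alone. Reads without molecular identifiers are not independent molecules.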

Additional observations from a re-analysis of the deposited data

Results flagged for a closer look

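A single mouse lay far from the rest by Dixon's criterion in 7 of 120 groups of values (5.83%), where chance gives about 5%. In 5 of the 7 the mouse was ConvR mouse 3, whose log2 ratio of colon over jejunum lay far below those of the other ConvR mice: -0.5 in the stretch on chromosome 17, -0.47 in the stretch with Defa-ps15 on chromosome 8, -0.45 in the stretch with Topbp1-ps1 on chromosome 7, -0.41 in the stretch with Sp140 and Sp100 on chromosome 1, and -0.48 at the region beside Tdpoz2. GermFree mouse 4 stood above the other GermFree mice at the region in Klra3, with a log2 ratio of 1.44. ConvR mouse 1 stood above the other ConvR mice at the region in Ankrd29, with 1.26.

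Regions off the autosomes were outside the comparison. A fit to all chromosomes called 499 of 95750 regions higher in colon and 76 lower. Off the autosomes, 141 of 1345 regions were higher in colon and 4 were lower, with a median log2 difference of 0.25. Chromosome X had 40 higher and 4 lower of 374, chromosome Y 72 higher of 802, and unplaced and mitochondrial sequence 29 higher of 169.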

How the results depend on the processing

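All 424 calls kept their direction in every alternative in which they were tested, except ConvR mice alone, where 407 of 421 did. These fits reuse libraries that chose the calls, so a kept direction is no independent support. The number of calls was far less stable. DESeq2 gave 0 (0 higher, 0 lower), and its median fitted dispersion over regions was 0.0664. The median of the dispersion trend that edgeR fitted was 0.00532, which is an unlike measure. Library totals gave 277 (206 higher), loess offsets 201 (145 higher), no replicate block 47 (42 higher, 5 lower), GermFree mice alone 1365 (1093 and 272), ConvR mice alone 0 (0 and 0), and all mice but ConvR 1 and 3 gave 1590 (1252 and 338). Leaving out 1 mouse gave 22 to 1633 calls, 18 to 1283 higher and 3 to 350 lower; the extremes of the total were without GermFree mouse 4 and without ConvR mouse 3. For the difference between models the range was 0 to 5, with 1 call without ConvR mouse 1 and 5 without ConvR mouse 5. Without the block, ileum and duodenum against jejunum had 0 calls each. The share near a gene start moved to 0.0512 points with 2 kb in place of 1 kb (adjusted p = 0.063, exact permutation). In ConvR mice alone the shares differed by 0.00551 (near a start), -0.158 (gene body), 0.153 (outside genes) and 0.16 points (broad); none could pass, since 5 mice allow no p below 0.0625. Of the named regions, Abcg2 turned its direction, at -0.01 in ConvR mice alone; over 34 regions, 266 of 395 values under other settings stayed past the threshold, and 212 of 408 with 1 mouse left out. The cause of these changes was not tested. The median region held 11 to 18 counts per library, which limits single regions of ordinary level.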
